A study of Mus musculus with 6 samples.

Results

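The antioxidant and thiol redox genes are 40 genes that detoxify superoxide and hydrogen peroxide, keep protein thiols reduced, make or recycle glutathione, or set these enzymes through the Nrf2 pathway. They were chosen by gene symbol, and each was read from array probes whose platform annotation lists that symbol and no other gene. A probe here is a transcript cluster of the exon array, summarized over a gene's exons, and a gene with several is given by its brightest. In all, 36 of the 40 had a probe of their own, among 20204 genes measured this way. Txnrd1, the cytosolic thioredoxin reductase, and Gclm, the modifier subunit of glutamate-cysteine ligase, have only a probe shared with another gene. Prdx5 and Prdx6, both peroxiredoxins, have no probe listed, and these 4 genes were not analysed here.

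Islets were purified by collagenase digestion from 3 wild-type and 3 mTR-/-G4 mice, and each sample was hybridized to 1 Affymetrix Mouse Exon 1.0 ST array. All 6 mice were male C57BL/6 animals of 15 months, and only the mTR-/-G4 group carried a mutant allele. The mTR-/-G4 mice lack the telomerase RNA in all their cells, not in the islets alone, and descend from successive generations without it, so that their telomeres are short. The samples are named here by their genotype and the letter in their labels.

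Superoxide dismutases turn superoxide into hydrogen peroxide, which catalase, the glutathione peroxidases and the peroxiredoxins then remove. Glutathione, the thioredoxins and the glutaredoxins supply the reducing power and repair oxidized thiols, and the transcription factor Nrf2, held back by Keap1, drives many of these genes when cells meet oxidants or electrophiles. β-cells are known for low catalase and glutathione peroxidase activity compared with liver, and for Txnip, a thioredoxin inhibitor that glucose induces.

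No member passed the study's threshold in either direction, that is, a difference of over 1.5-fold, up or down, at p below 0.05 before adjustment (limma). Of all genes, 1.94% were higher and 1.64% were lower in mTR-/-G4 islets at that threshold. Leaving out the fold, 2 of 36 members were higher at p below 0.05, Hmox1 and Gpx6, and 0 were lower, beside 14.2% and 7.96% of all genes. The log2 fold change, mTR-/-G4 minus wild-type, ran from -0.50 for Gpx8 to 0.37 for Hmox1 with a median of 0.08, beside a median of 0.10 over all genes. It was above 0 in 24 members and below 0 in 12, and 63.4% of all genes were above 0. These values of all genes take bright and dim together, and dim genes shifted upward as a whole. Of the members, 30 were brighter than the median probe, with a median of 0.06 beside -0.06 over all such genes. The 6 dimmer members had a median of 0.18 beside 0.23. The p adjusted by Benjamini and Hochberg across the whole array ran from 0.168 for Hmox1 to 0.978 for Keap1.

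**Figure D1:**
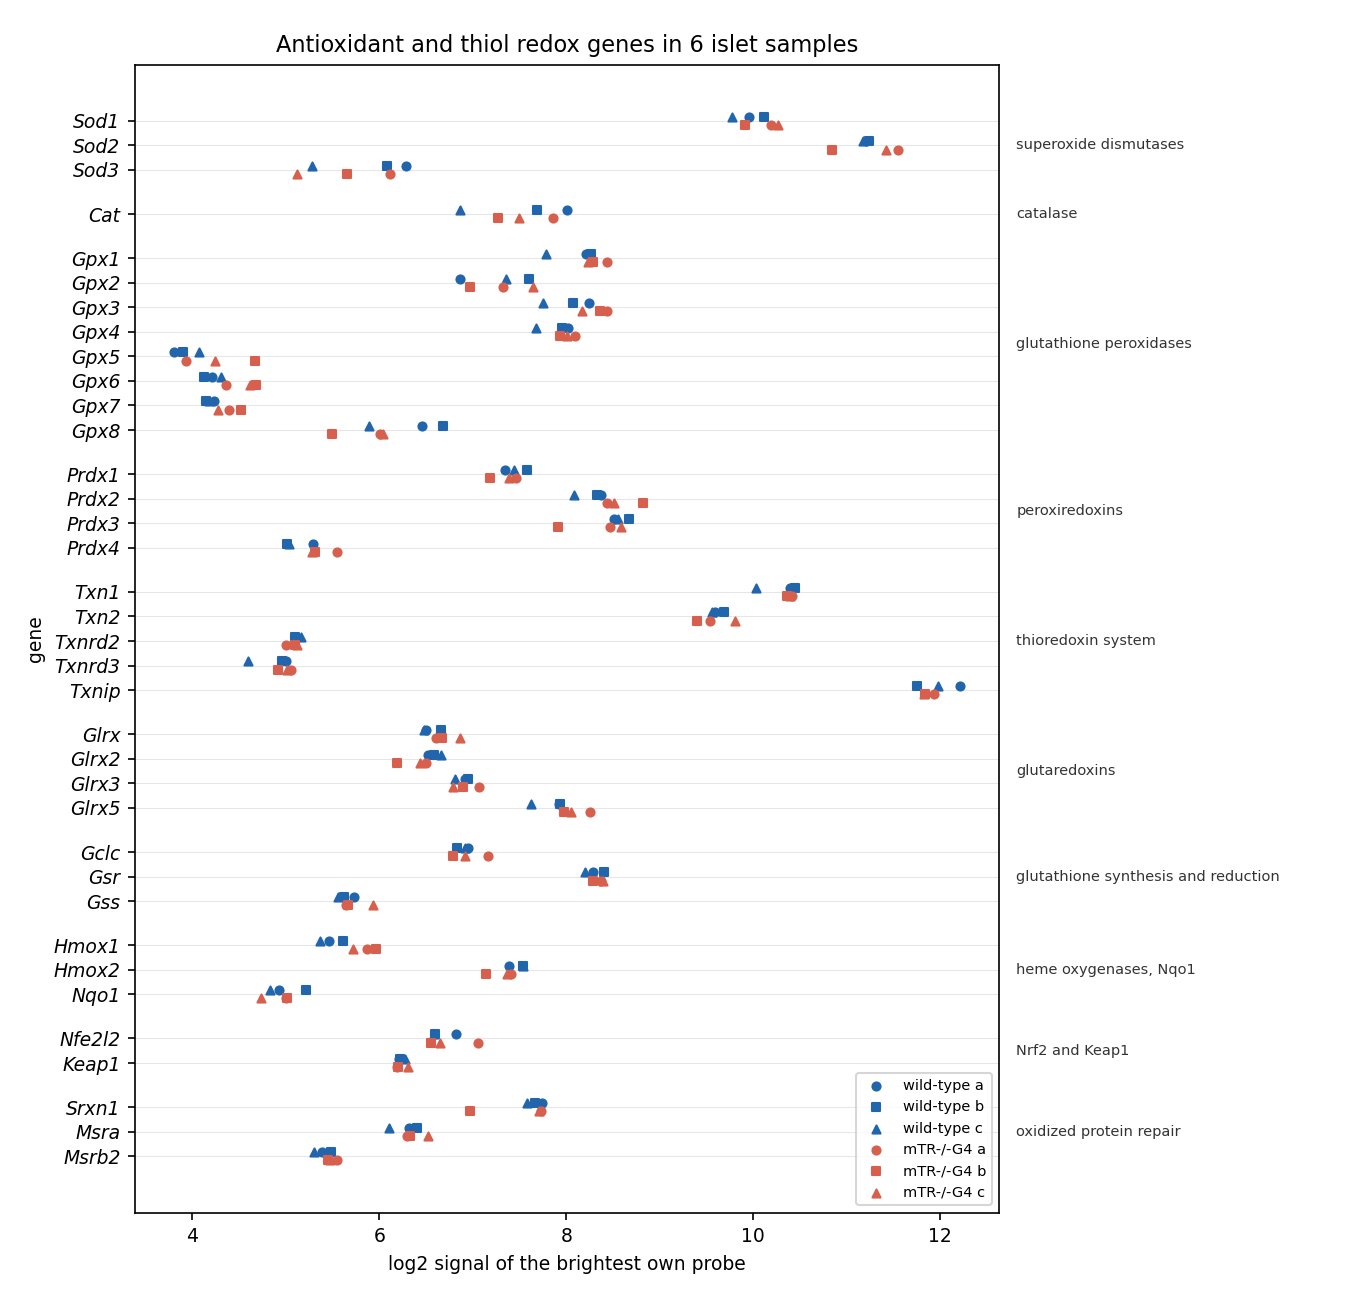
Log2 signal of the brightest own probe of the 36 measured antioxidant and redox genes in each of 3 wild-type (blue) and 3 mTR-/-G4 (red) islet samples, with genes grouped by role. Signals run from about the level of Gpx5 at 3.93 to that of Txnip at 11.98 (wild-type means), and the genotypes overlap for 30 genes.

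The 3 samples of each genotype set how far these values reach. The standard error of a member's log2 fold change had a median of 0.13 and ran from 0.093 for Txnrd2 to 0.33 for Sod3. For 24 of 36 members, the 95% interval of the difference lay within 1.5-fold in both directions, and this was so for 63.5% of all genes. The other 12, among them Cat, Sod3 and 6 of the 8 glutathione peroxidases, have intervals that also hold changes of over 1.5-fold, so changes of that size lie within their error at this number of arrays. All 3 mTR-/-G4 samples lay above all 3 wild-type samples for 5 members, Gpx6, Gpx7, Prdx2, Glrx5 and Hmox1, and below them for 1, Glrx2. Over all genes these shares were 25.0% and 12.2%.

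**Figure D2:**
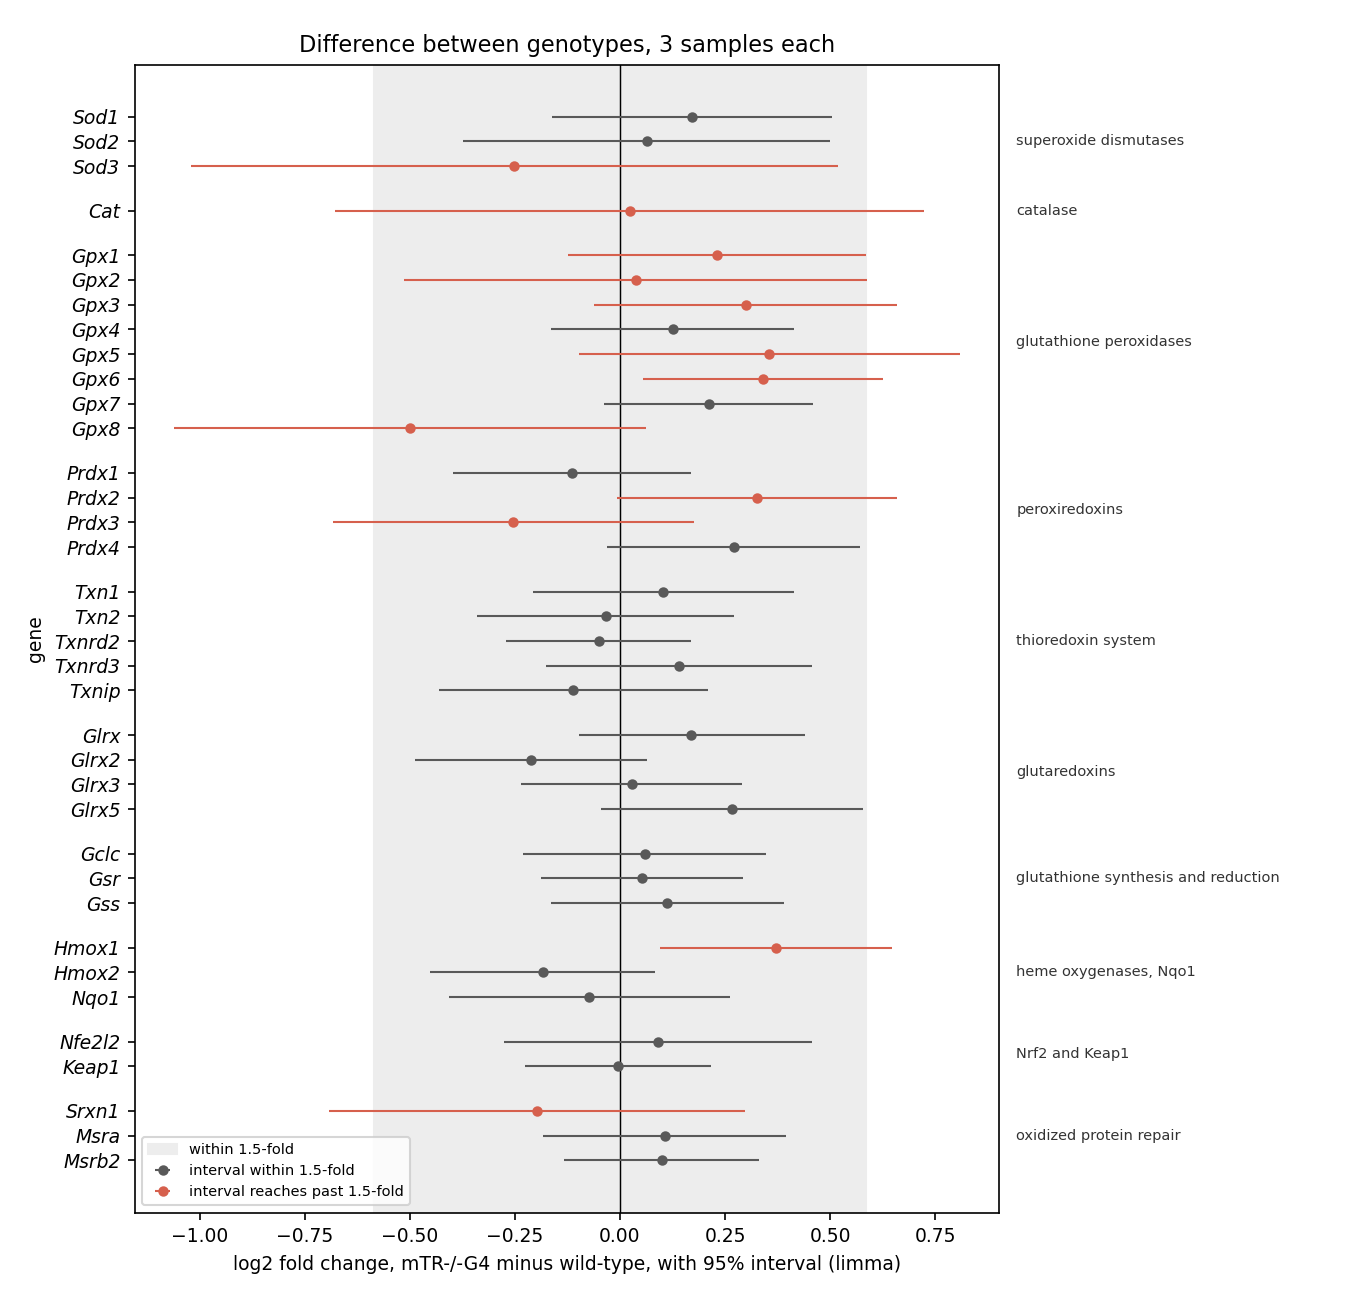
Log2 fold change (mTR-/-G4 minus wild-type, 3 samples each) with its 95% interval from limma for the 36 genes, with the range within 1.5-fold shaded. The 24 grey intervals lie inside the shaded range and the 12 red ones reach past it, and 2 intervals, those of Gpx6 and Hmox1, lie above 0.

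Among the superoxide dismutases, the mitochondrial enzyme Sod2 was one of the brightest genes on the arrays, with 98.5% of probes dimmer than its own. Its log2 signal was 11.21, 11.24 and 11.18 in wild-type a, b and c and 11.55, 10.84 and 11.42 in mTR-/-G4 a, b and c. The wild-type samples lay close together (11.21 ± 0.031, SD, n = 3), and the mTR-/-G4 samples lay on both sides of them (11.27 ± 0.38, SD, n = 3). The log2 fold change was 0.06 (SE 0.19, 95% interval -0.37 to 0.50, limma adjusted p = 0.835). Without mTR-/-G4 b, the lowest sample, it was 0.28. The 4 other probes of Sod2 differed by 0.03 to 0.44, and none passed the threshold. Sod1, the cytosolic copper and zinc enzyme, averaged 9.95 ± 0.18 over the wild-type and 10.12 ± 0.19 over the mTR-/-G4 samples (SD, n = 3), and its interval lay within 1.5-fold.

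Sod3, the secreted dismutase, had the largest standard error of the members. Its log2 signal was 6.29, 6.08 and 5.28 in wild-type a, b and c and 6.12, 5.66 and 5.12 in mTR-/-G4 a, b and c, so that sample c was the lowest and sample a the highest in both genotypes. The log2 fold change was -0.25 (SE 0.33, 95% interval -1.02 to 0.52). The mean log2 signal of 8 markers of fibroblasts and stellate cells, 6.21, 5.99 and 5.42 in wild-type a, b and c and 6.14, 5.99 and 5.67 in mTR-/-G4 a, b and c, had the same order of samples within each genotype, and so did the means of the acinar and duct marker lists. The part of these cells in the values of Sod3 was not tested, and in such bulk samples fewer cells of a type and less RNA per cell cannot be told apart.

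Catalase (Cat), which breaks down hydrogen peroxide in peroxisomes, had a wild-type log2 signal of 7.52 ± 0.59 (SD, n = 3), and 84.0% of probes were dimmer. The samples were at 8.003, 7.68 and 6.87 in wild-type a, b and c and at 7.86, 7.27 and 7.50 in mTR-/-G4 a, b and c. All mTR-/-G4 samples lay between the highest and the lowest wild-type sample. Between genotypes Cat differed by 0.02 on the log2 scale (SE 0.30, adjusted p = 0.965), and its interval reached from a fold of 0.625 to 1.65. The sign was not stable. Over the 6 fits that each left out 1 sample, the difference ran from -0.30 (without wild-type c) to 0.27 (without wild-type a). It was also below 0 without mTR-/-G4 a at -0.14, with centred arrays at -0.08 and with sample weights, which did not converge, at -0.11. With the acinar marker mean as a covariate, which itself did not overlap between genotypes, it was -1.03 (SE 0.50).

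The 8 glutathione peroxidases, which reduce peroxides with glutathione, formed a bright and a dim set. In wild-type islets the log2 signal was 8.09 ± 0.26 for Gpx1, the main cytosolic enzyme, 8.02 ± 0.25 for the secreted Gpx3, 7.89 ± 0.18 for Gpx4, which reduces lipid hydroperoxides in membranes, and 7.28 ± 0.37 for Gpx2, known from the gut epithelium (SD, n = 3 each). Gpx8, a membrane protein of the endoplasmic reticulum, was at 6.34 ± 0.41. Gpx6, known from the olfactory epithelium, was at 4.21 ± 0.091, Gpx7, another endoplasmic reticulum enzyme, at 4.18 ± 0.040 and Gpx5, known from the epididymis, at 3.93 ± 0.13, with 29.2%, 25.3% and 17.0% of probes dimmer than them. Signals of different probes also depend on how well each probe hybridizes, so these orders describe brightness on the array and not amounts of RNA.

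Gpx8 had the largest difference of any member. Its log2 signal was 6.46, 6.68 and 5.89 in wild-type a, b and c and 6.01, 5.49 and 6.03 in mTR-/-G4 a, b and c. Wild-type a and b lay above every mTR-/-G4 sample, and wild-type c lay below 2 of them. Its log2 fold change was -0.50 (SE 0.24, 95% interval -1.06 to 0.06, adjusted p = 0.242). It passed the study's threshold at -0.60 with each array centred on its median and at -0.73 without wild-type c, and did not pass with the values as deposited.

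Gpx1 was at 8.21, 8.26 and 7.79 in wild-type a, b and c and at 8.44, 8.28 and 8.24 in mTR-/-G4 a, b and c. Wild-type c was lower than the other 5 samples, which lay within a narrow range, and without it the log2 fold change of 0.23 (SE 0.15, adjusted p = 0.342) became 0.08. Gpx3 and Gpx4 were likewise lowest in wild-type c and highest in mTR-/-G4 a, with log2 fold changes of 0.30 (SE 0.15) and 0.13 (SE 0.12). Gpx2 differed by 0.04 (SE 0.23).

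The dim members Gpx5 and Gpx6 had positive differences of similar size. Gpx5 was at 3.81, 3.90 and 4.07 in wild-type a, b and c and at 3.93, 4.67 and 4.25 in mTR-/-G4 a, b and c, with a log2 fold change of 0.36 (SE 0.19, adjusted p = 0.277). Gpx6 was at 4.21, 4.12 and 4.30 in the wild-type and at 4.36, 4.68 and 4.61 in the mTR-/-G4 samples, with a log2 fold change of 0.34 (SE 0.12, 95% interval 0.06 to 0.63, adjusted p = 0.187). Dim genes as a whole shifted the same way: the median log2 fold change was 0.23 over the 9169 genes dimmer than the median probe and -0.06 over the 11035 brighter ones. After quantile normalization, which gives every array the same distribution, Gpx5 differed by 0.13 and Gpx6 by 0.11, and the medians of both sets of genes were 0.02.

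A second probe of Gpx4, far dimmer than the first, differed more than any other secondary probe of a member and was picked out from its values. It was at 5.30, 5.23 and 5.21 in the wild-type and at 5.67, 5.86 and 5.69 in the mTR-/-G4 samples, a log2 fold change of 0.50 (SE 0.10, adjusted p = 0.104), against 0.13 on the brighter probe. In all, 8 members had several probes of their own. None of their 12 other probes passed the threshold, beside 6.23% of all probes.

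The peroxiredoxins reduce hydrogen peroxide through an active-site cysteine. Their wild-type log2 signals were 8.58 ± 0.081 for Prdx3, the mitochondrial member, 8.26 ± 0.16 for Prdx2 and 7.46 ± 0.12 for Prdx1, both cytosolic, and 5.11 ± 0.15 for Prdx4, the member of the endoplasmic reticulum (SD, n = 3 each). Prdx2 was at 8.37, 8.33 and 8.08 in wild-type a, b and c and at 8.43, 8.82 and 8.51 in mTR-/-G4 a, b and c, so the genotypes were separate by a small gap. The log2 fold change was 0.33 (SE 0.14, 95% interval -0.01 to 0.66, adjusted p = 0.222). A dimmer second probe of Prdx2, also picked out from its values, did not overlap between genotypes either, with a difference of 0.42 (SE 0.11, adjusted p = 0.143). Prdx2 is abundant in red blood cells, and 4 markers of erythroid cells had a mean log2 signal of 4.46 ± 0.083 in wild-type and 4.85 ± 0.25 in mTR-/-G4 samples (SD, n = 3), highest, as Prdx2 was, in mTR-/-G4 b. That sample was the highest for 39.1% of all genes, bright and dim together. Of the 30 members brighter than the median probe it was the highest for 2, Prdx2 among them. The share among bright genes alone was not counted, so this count is not read as a result about Prdx2. The erythroid markers are dim, where genes as a whole shifted upward, and their part in the difference of Prdx2 was not tested.

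Prdx4 was at 5.29, 5.01 and 5.03 in wild-type a, b and c and at 5.55, 5.31 and 5.28 in mTR-/-G4 a, b and c. The highest wild-type sample and the lowest mTR-/-G4 sample nearly coincided, and the log2 fold change was 0.27 (SE 0.13, 95% interval -0.03 to 0.57, adjusted p = 0.241). Prdx3 pointed the other way, at -0.25 (SE 0.18), through mTR-/-G4 b at 7.92 when the other 5 samples lay from 8.47 to 8.67. Without mTR-/-G4 b the difference of Prdx3 was -0.05. Prdx1 differed by -0.11 (SE 0.12).

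In the thioredoxin system, all 5 measured members had intervals within 1.5-fold. Txnip, which binds and inhibits thioredoxin, had the brightest probe of all members, with 99.3% of probes dimmer. It was at 12.21, 11.75 and 11.98 in wild-type a, b and c and at 11.94, 11.84 and 11.83 in mTR-/-G4 a, b and c. The mTR-/-G4 samples lay inside the wild-type range, and the log2 fold change was -0.11 (SE 0.14, 95% interval -0.43 to 0.21, adjusted p = 0.602). A far dimmer probe of Txnip differed in the opposite direction, by 0.27 (SE 0.29), and did not pass. Txn1 and Txn2, the cytosolic and mitochondrial thioredoxins, differed by 0.10 (SE 0.13) and -0.03 (SE 0.13). Txnrd2, the mitochondrial thioredoxin reductase, differed by -0.05 (SE 0.093) and Txnrd3, known from testis, by 0.14 (SE 0.14), both from probes dimmer than the median probe.

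The glutaredoxins, which reduce mixed disulfides of proteins with glutathione or carry iron-sulfur clusters, also had 4 of 4 intervals within 1.5-fold. Glrx5, which serves iron-sulfur cluster assembly in mitochondria, differed by 0.27 (SE 0.13) and the cytosolic Glrx by 0.17 (SE 0.11). The mitochondrial Glrx2 was the one member whose mTR-/-G4 samples all lay below the wild-type samples, at 6.50, 6.19 and 6.44 against 6.52, 6.58 and 6.66, a log2 fold change of -0.21 (SE 0.12, adjusted p = 0.286). Glrx3, a cytosolic iron-sulfur protein, differed by 0.03 (SE 0.11). The 3 measured genes of glutathione synthesis and reduction had intervals within 1.5-fold as well. Gclc, the catalytic subunit of the first and limiting step, differed by 0.06 (SE 0.12), Gss, which completes the tripeptide, by 0.11 (SE 0.12), and Gsr, which reduces the oxidized dimer, by 0.05 (SE 0.10).

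Hmox1, the inducible heme oxygenase and a common readout of oxidant stress, had the largest positive difference. It was at 5.47, 5.61 and 5.37 in wild-type a, b and c and at 5.87, 5.97 and 5.72 in mTR-/-G4 a, b and c. All mTR-/-G4 samples lay above all wild-type samples, and the spread within each genotype was small (SD 0.12 and 0.13, n = 3). The log2 fold change was 0.37 (SE 0.12, 95% interval 0.09 to 0.65, adjusted p = 0.168), a fold of 1.29 with an interval from 1.07 to 1.56. It stayed between 0.31 and 0.44 whichever sample was left out and was 0.38 after quantile normalization, and in 13 of 15 alternative fits its p before adjustment stayed below 0.05. With the acinar marker mean fitted as a covariate it was 0.28 (SE 0.28). Hmox2, the constitutive enzyme, differed by -0.18 (SE 0.11), and Nqo1, a quinone reductase, by -0.07 (SE 0.14). The dimmer probes of Nqo1 differed in the opposite direction, by 0.39 (SE 0.19) and 0.17 (SE 0.24), and did not pass.

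Nfe2l2, which encodes Nrf2, was at 6.82, 6.59 and 6.59 in wild-type a, b and c and at 7.06, 6.56 and 6.65 in mTR-/-G4 a, b and c. Sample a was the highest in both genotypes and the other samples lay close together, with a log2 fold change of 0.09 (SE 0.16, 95% interval -0.28 to 0.46, adjusted p = 0.716). Keap1, its inhibitor, had the narrowest range of all members over the 6 samples, 0.112, and differed by -0.004 (SE 0.094, fold 0.997 with an interval from 0.855 to 1.16). Srxn1, which reactivates overoxidized peroxiredoxins, differed by -0.20 (SE 0.21) and was low in mTR-/-G4 b alone, at 6.97 against 7.58 to 7.74 in the other 5 samples. Msra and Msrb2, which reduce the S and R forms of oxidized methionine, differed by 0.11 (SE 0.12) and 0.10 (SE 0.098).

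Nrf2 binds the antioxidant response element, whose core TGACNNNGC was searched on both strands in RefSeq promoters of build GRCm38.p6, each from 250 bases before to 50 after a transcription start. Of the 34 members with a promoter entry, 7 held it (Sod1, Prdx1, Nfe2l2, Srxn1, Msrb2, Txnrd1 and Gclm), or 20.6% beside 14.0% of all genes with an entry. A gene with several promoters counts here if any of them holds the core. Counted by promoter, 7 of the members' 45 held it, beside 4071 of all 32851, or 12.4%. The windows of 60 bases around the match are shown for the 3 with a measured probe and a match before the start, as the sequence context of members that Nrf2 could read, with the core in capitals (as its reverse complement for Sod1 and Prdx1) and the gene's strand read 5′ to 3′.
Nfe2l2 (chr2:75704854-75704913, minus strand, core 240 to 232 bases before the start): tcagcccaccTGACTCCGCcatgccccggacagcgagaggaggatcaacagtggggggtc
Prdx1 (chr4:116685440-116685499, plus strand, core 133 to 125 bases before the start): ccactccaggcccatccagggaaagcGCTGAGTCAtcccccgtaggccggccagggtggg
Sod1 (chr16:90220680-90220739, plus strand, core 56 to 48 bases before the start): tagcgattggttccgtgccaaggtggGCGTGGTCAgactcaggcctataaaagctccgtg
The 5 measured members with the core had log2 fold changes of -0.20 to 0.17 with a median of 0.09, and the median over the 26 measured members with an entry and no match was 0.08. The other measured members, Sod3, Gclc, Gsr, Hmox1 and Msra, were not searched. A match in these letters is a description of the window and not a bound site. Sequence outside the promoters was not searched, so the medians do not compare members that Nrf2 drives with members that it does not.

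The samples that stood apart were the same for many members. Wild-type c was the lowest of the 6 samples for 15 of the 36 members, 14 of them brighter than the median probe, beside 22.6% of all genes. mTR-/-G4 b was the lowest for 10 members, all brighter than the median probe, beside 27.1% of all genes. mTR-/-G4 a was the highest for 11 members, 10 of them brighter than the median probe, beside 13.4% of all genes. These shares of all genes take bright and dim together. The shares among bright genes alone were not counted, so none of these counts is read as a result about the members. The range of the arrays differed, with an interquartile range of the log2 signal of 2.63 to 2.79 in wild-type and of 2.56, 2.05 and 2.42 in mTR-/-G4 a, b and c. Arrays correlated at 0.985 to 0.989 within wild-type and at 0.970 to 0.986 within mTR-/-G4 samples. Quantile normalization, which takes out the difference in range, brought the median log2 fold change of the members to 0.14 and of all genes to 0.02, and 6 members were then higher and 0 lower at p below 0.05 before adjustment, beside 8.53% and 7.87% of all genes in that fit. These were Sod1 at 0.34 (SE 0.11), Sod2 at 0.37 (SE 0.13), Gpx3 at 0.43 (SE 0.17), Glrx at 0.28 (SE 0.11), Glrx5 at 0.41 (SE 0.11) and Hmox1 at 0.38 (SE 0.11), with limma adjusted p of 0.168 to 0.26, and none passed the 1.5-fold threshold. With each array centred on its median instead, which moved the median of all genes from 0.10 to 0.00, the median of the members was -0.02, so its direction depends on the scaling.

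**Figure D3:**
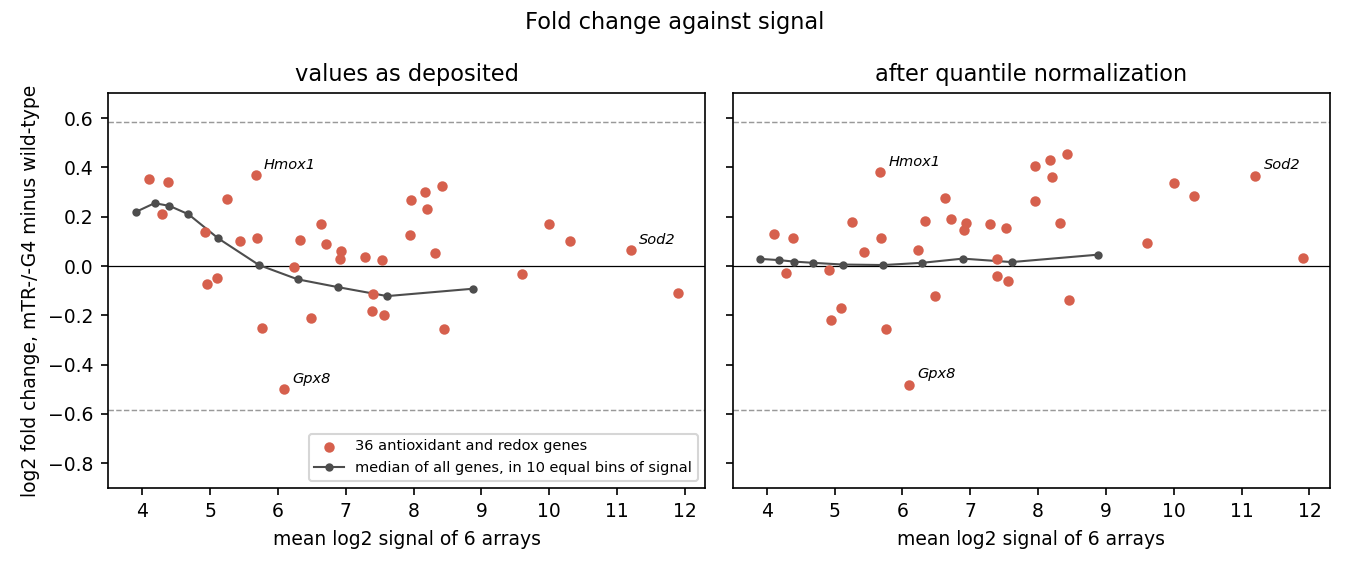
Log2 fold change (mTR-/-G4 minus wild-type) against the mean log2 signal of 6 arrays for the 36 genes (red), with the median of all genes in 10 equal bins of signal (grey line) and dashed lines at 1.5-fold, for the values as deposited (left) and after quantile normalization (right). The grey line falls from 0.22 in the dimmest bin to -0.09 in the brightest as deposited and lies between 0.00 and 0.05 after quantile normalization, and no red point passes a dashed line in either.

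Some markers of other cells differed between genotypes. Of 21 markers of acinar cells, the enzyme-secreting cells around islets, 18 were higher and 1 was lower in mTR-/-G4 samples at the study's threshold. Their mean log2 signal was 8.41, 7.60 and 7.50 in wild-type a, b and c and 9.87, 9.29 and 8.93 in mTR-/-G4 a, b and c, a difference of 1.53 (exact permutation test, two-sided, p = 0.1, which is the lowest value 3 against 3 samples allow). The mean over 10 endothelial markers was 7.82 ± 0.37 in wild-type and 7.42 ± 0.22 in mTR-/-G4 samples (SD, n = 3), and 3 of them were lower. The duct marker mean was 0.41 higher in mTR-/-G4 samples, with 1 of 7 markers higher at the threshold, and the means over leukocyte and fibroblast markers differed by 0.03 and 0.06. The mean over 5 islet hormone genes was 12.65 ± 0.096 and 12.57 ± 0.10, and none of them passed, so the labelled tissue carried its defining transcripts in both genotypes. With the acinar mean as a covariate, the standard errors of the members grew to a median of 0.28. The median log2 fold change was -0.10, and the interval of 0 members lay within 1.5-fold. The acinar mean did not overlap between genotypes, so this fit separates genotype from acinar signal poorly. In that fit 0 members were higher at the threshold and 1 was lower, Sod3 at -1.62 (SE 0.44). The part of other cells in the members' values was not tested further.

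**Figure D4:**
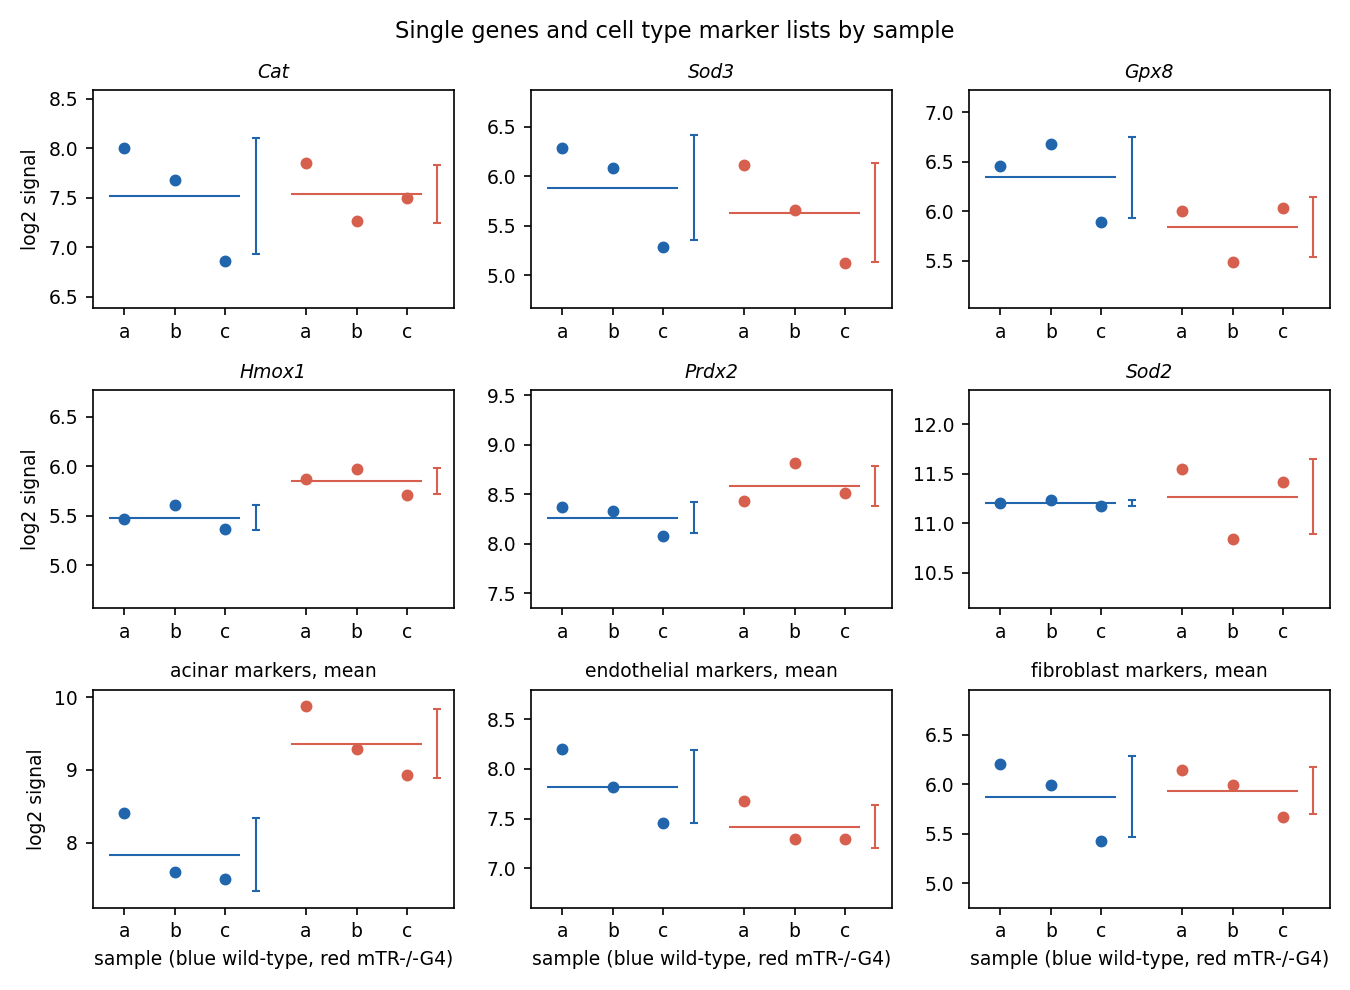
Log2 signal in wild-type (blue) and mTR-/-G4 (red) samples a, b and c for 6 single genes and for the mean of the acinar, endothelial and fibroblast marker lists, with the genotype mean as a line and its SD as a bar; panels have their own scale. All 6 genes and all 3 marker means shown are lowest among wild-type samples in c, and Hmox1 and Prdx2 are the genes shown whose genotypes do not overlap.

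A wider list of 164 genes around these systems was counted as well, of which 146 were measured: NADPH supply, glutathione transferases, selenoproteins, metal-binding proteins, oxidant sources, oxidoreductases and regulators of the antioxidant response. On the brightest probe of each gene, 2 rose, 2 fell and 142 passed in neither direction at the study's threshold, with a median log2 fold change of 0.07. The counts are near what the shares of all genes, 1.94% and 1.64%, would give in a list of this size, so they are no result about the list. Among the 142, a dimmer probe passed upward for Sesn2 at 0.76, Txndc9 at 0.69 and Selenot at 0.69, and 6.23% of all probes passed in either direction. The 4 genes that passed on their brightest probe are described singly. Nfe2, a relative of Nrf2 best known in red cell and platelet precursors, rose by 0.63 (SE 0.11, limma adjusted p = 0.0933), from a dim 4.29, 4.15 and 4.46 in wild-type a, b and c to 4.87, 4.95 and 4.98 in mTR-/-G4 a, b and c. Sephs2, which makes the selenium donor that Gpx1 and other selenoproteins need, rose by 0.72 (SE 0.15, adjusted p = 0.108), from 6.19, 5.95 and 6.30 to 6.64, 6.89 and 7.07, and its other probe differed by 0.07 and did not pass.

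Foxo1, a forkhead factor that drives Sod2 and Cat in several tissues, fell by 0.61 on the log2 scale (SE 0.14, adjusted p = 0.116), from 6.99, 7.21 and 7.33 in wild-type a, b and c to 6.74, 6.41 and 6.54 in mTR-/-G4 a, b and c. Its other probe differed by 0.33 in the opposite direction and did not pass. Ero1b, the oxidase that forms disulfides in the endoplasmic reticulum of β-cells and makes hydrogen peroxide in doing so, fell by 0.63 (SE 0.20, adjusted p = 0.167), from 13.46, 13.55 and 13.71 to 12.94, 12.55 and 13.34. Of its 4 other probes, 2 passed in the same direction at -0.96 and -0.95 and 2 did not pass at -0.41 and -0.43. With the acinar mean as a covariate, Nfe2 and Sephs2 passed at 0.75 and 1.01, and Foxo1 and Ero1b did not, at -0.52 and -0.23. Neither decrease passed after quantile normalization, without wild-type c or without mTR-/-G4 b.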

How the data were processed

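Islet RNA of 3 wild-type and 3 mTR-/-G4 mice was hybridized to exon arrays. The authors used Partek for Robust Multichip Analysis of all arrays, and the deposited log2 values of 34502 probes were used unchanged; the processing notes name the build mm9. The platform annotation lists 1 gene for 25362 probes, several for 2238 and none for 6902. Genotypes were compared unpaired with limma 3.58.1 (lmFit and eBayes) in R 4.3.3 over all probes, with no filter on dim probes, and p-values were adjusted over all of them. The test was checked on simulated data with differences larger than that of any member, so the check does not cover differences of the members' size. The threshold is that of the methods, whose general statement on statistics names a Student's test for means, tried here as an alternative.

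Members and gene lists were chosen with earlier results of these data known. Values in every sample were given for members past the threshold, for the 5 with the next largest change and for Cat, Gpx1, Sod2, Prdx4, Txnip, Hmox1 and Nfe2l2, and wider-list genes were named where they passed. Other members whose single samples are given were picked from their values. Promoters came from RefSeq, for names and sequences only.

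As alternatives, the comparison was repeated with quantile normalization, centred arrays, bright probes only, the mean of a gene's probes, the methods' t-test, a 2-fold threshold, an adjusted p under 0.05, sample weights, a variance prior fitted with trend and robustly, a replicate block, the acinar mean as a covariate, and each sample left out in turn. The count of intervals within 1.5-fold was added after the data were seen. Each sample was taken as 1 mouse, as the study counts them, and having 3 arrays a group limits precision throughout.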

Additional observations from a re-analysis of the deposited data

How the results depend on the processing

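The count of members higher at the study's threshold was 0 in every alternative run, the methods' t-test included. The count of lower members was 0 with the values as deposited and 1 with arrays centred on their medians (Gpx8 at -0.60), with sample weights (Sod3 at -0.82, from a fit whose weights did not converge) and with the acinar mean as a covariate (Sod3 at -1.62), and it ran from 0 to 1 over the fits without 1 sample (1 without wild-type c, Gpx8 at -0.73). Of the 36 members, 13 kept the sign of their log2 fold change in all fits they entered. The 24 members with an interval within 1.5-fold became 0 with the acinar covariate, where the members' median standard error was 0.28 instead of 0.13. The acinar mean did not overlap between genotypes, so that fit separates genotype from acinar signal poorly. On the wider list, the count of higher genes moved from 2 to 1 with centring, with bright probes only and with the mean of a gene's probes, to 4 with the replicate block and 4 with the acinar covariate, and to 0 at 2-fold or at an adjusted p under 0.05. The count of lower genes moved from 2 to 1 by the methods' t-test, with the mean of a gene's probes and with sample weights, to 0 with quantile normalization, at 2-fold and at an adjusted p under 0.05, and to 7 with the acinar covariate, and ran from 0 to 3 over the fits without 1 sample (0 without wild-type c and 0 without mTR-/-G4 b). The causes were not tested. Deviations of samples with the same letter correlated at 0.04, -0.16 and 0.11, and those with different letters at -0.17 to 0.14. With 3 samples a group this cannot settle whether the letters pair the samples, and the labels do not say. The replicate block changed no call among the members. The acinar marker difference kept its direction and size in its alternatives. Members dimmer than the median probe, 6 of 36, lie in the range where all genes shifted upward before quantile normalization.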
